A study of Homo sapiens with 2 samples.

Results

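The immunoglobulin loci and the surrogate light chain genes were examined in the H3K27ac map of LOUCY, a human leukaemia line of T-ALL (T-cell acute lymphoblastic leukaemia), known as a model of its immature form. H3K27ac, the acetylation of histone H3 at lysine 27, marks active promoters and enhancers. A peak was a member if it shared at least 1 bp with one of 4 hg19 intervals. These were the heavy chain locus IGH (106.03 to 107.29 Mb of chromosome 14), the kappa locus IGK (89.15 to 90.28 Mb of chromosome 2), the lambda locus IGL (22.38 to 23.27 Mb of chromosome 22, with VPREB1 at 22.599 to 22.6 Mb) and IGLL1 (23.915 to 23.923 Mb of chromosome 22) with 20 kb on either side. This gave 171 of the 52203 peaks in the list, with 91 in IGH, 29 in IGK, 50 in IGL and 1 at IGLL1. The study held 1 H3K27ac ChIP library and 1 library of input DNA from LOUCY cells, the sheared chromatin before precipitation. After repeated tags at 1 position were dropped, 54357332 of 62626946 tags remained for ChIP and 71932640 of 74212738 for input. Each peak has a fold, the ratio of ChIP to input, and a -log10 p, which measures how far the ChIP tags exceed the input and grows with depth. Both are values of the authors' peak caller. There were no replicates, so no difference was tested, and all values describe this pair of libraries and this 1 line.

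Immunoglobulin chains are assembled in B cells by joining V, D and J segments in the heavy chain locus, and V and J segments in the light chain loci. Before a light chain exists, the heavy chain of a pro-B cell pairs with the surrogate light chain, which is made of the VPREB1 and IGLL1 proteins, and the complex signals through CD79A and CD79B as the pre-B-cell receptor. VPREB1 and IGLL1 are known as genes of early B-lineage cells, while T cells assemble the T-cell receptor loci instead. IGH D-to-J joints are also known from a number of T-cell leukaemias.

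The promoters of VPREB1 and IGLL1 lay under the members of highest fold, so the 250 bases before each start site are shown, as given by RefSeq for GRCh38.p14, at chr22:22244536-22244785 on the plus strand for VPREB1 and chr22:23580291-23580540 on the minus strand for IGLL1. These are coordinates of another build than that of the peaks. Capitals mark each match to CANNTG, the E-box read by E proteins such as TCF3, and to CCCNNGGG, the core of the EBF1 motif. Both strings read the same on either strand, and no match of one overlapped a match of the other.
VPREB1: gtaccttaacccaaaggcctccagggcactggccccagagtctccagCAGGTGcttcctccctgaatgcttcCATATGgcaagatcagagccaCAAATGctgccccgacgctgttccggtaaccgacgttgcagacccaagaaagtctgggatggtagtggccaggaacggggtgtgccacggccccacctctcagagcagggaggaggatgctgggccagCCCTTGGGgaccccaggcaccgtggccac
IGLL1: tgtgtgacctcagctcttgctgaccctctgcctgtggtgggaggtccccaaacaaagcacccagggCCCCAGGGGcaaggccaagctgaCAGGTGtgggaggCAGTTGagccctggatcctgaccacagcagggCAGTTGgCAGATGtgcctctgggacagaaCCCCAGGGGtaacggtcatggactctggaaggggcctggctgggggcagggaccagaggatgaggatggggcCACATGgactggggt
CANNTG matched at 3 places in the VPREB1 window and at 5 places in the IGLL1 window. Of 35116 RefSeq windows of this length, 10.3% held at least 3 such places and 0.834% at least 5. CCCNNGGG matched at 1 place before VPREB1 and at 2 places before IGLL1, each with a pair of matches shifted by 1 base. At least 1 such place was found in 17.1% of all windows and at least 2 in 2.62%. A match describes the letters and does not show that a factor binds there.

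VPREB1, the V-like chain of the surrogate light chain, carried the H3K27ac peak of highest fold and highest -log10 p of all members. The peak ran from 22592929 to 22607137 of chromosome 22, 14209 bp in width, with a fold over input of 15.7 and a -log10 p of 128. It ranked 128 by fold and 62 by -log10 p among the 52203 peaks, and 1071 by width. By the ChIP level implied by fold and p, 151 tags, it came after 3 IGH peaks, of 188, 166 and 158 tags, and a narrow IGK peak of 400 tags. The gene lay in its middle, with 6.07 kb of the peak on one side and 7.14 kb on the other. The peaks next to it were weak, at a fold of 2.35 over 1743 bp on the low-coordinate side and 3.12 over 2095 bp on the other. In RefSeq's gene order the nearest V segments are IGLV10-54 and IGLV5-52, so VPREB1 sits among lambda V segments while being a gene of its own that needs no rearrangement.

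IGLL1, the J-C-like chain of the surrogate light chain, lay under the widest peak of all members. It spanned 28785 bp, from 23906110 to 23934894 of chromosome 22. Its fold was 14.2 and its -log10 p 107. It ranked 174 by width and 268 by fold of all peaks. The peak reached 8.89 kb beyond the gene on the low-coordinate side and 11.9 kb on the other, where the promoter lies, and covered 60% of the gene with its flanks. No other peak touched the interval. The nearest peak above it was 71.4 kb from the interval (24014387 to 24015617, fold 2.48) and the nearest below it 7.69 kb away (23883135 to 23887306, fold 3.29). RefSeq lists DRICH1 as the next protein-coding gene on the promoter side. Its distance from the peak was not measured, and whether the peak belongs to IGLL1 alone was not tested. The surrogate light chain genes, which lie apart on chromosome 22, each had 1 broad peak over the whole gene.

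**Figure D1:**
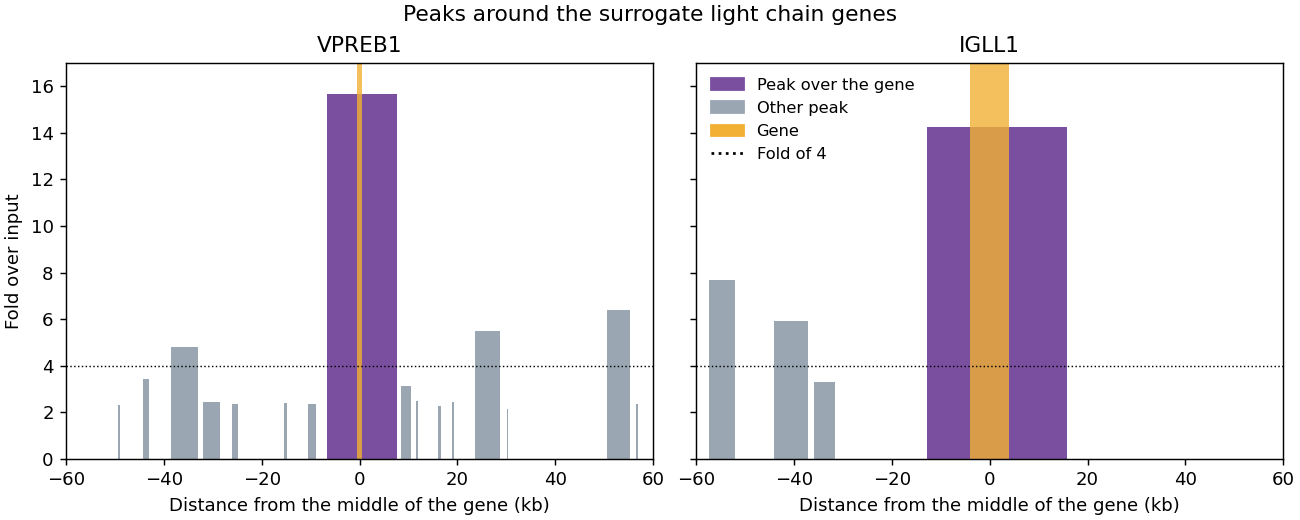
Fold over input of H3K27ac peaks (vertical axis) against distance from the middle of VPREB1 (left) and IGLL1 (right) in kb. Each bar is a peak drawn at its width, the gene is shaded and the dotted line is a fold of 4. The peaks over the genes reach 15.7 and 14.2, while every other peak shown has a fold below 8.

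Across all members, the loci differed from the genome in how many peaks they held and how much sequence these covered, and less in how strong the peaks were. The 4 intervals held 51.4 peaks per Mb and had 18.6% of their sequence covered, against 17.2 peaks per Mb and 4.90% over the genome. IGH, with 91 of the 171 peaks, weighed most in this. The covered share was 30.7% in IGH against 4.89% of chromosome 14, and 14.5% in IGL against 7.61% of chromosome 22. In IGK it was 6.61% against 5.05% of chromosome 2, a small difference. A fold of 4 or more was reached by 62 of the 171 members, or 36.3% (95% Wilson interval 29.4 to 43.7, counting error only), and by 37.4% of all peaks. A fold of 10 or more was reached by 9 members, 5.26%, and by 5.21% of all peaks. Both shares were close to those of all peaks. At a fold of 6 or more the share was lower in the members, 14.6% against 23.2%. The median fold of the members was 3.18 (range 1.87 to 15.7), against 3.08 for all peaks, and their median width was 1656 bp against 1670 bp. The 9 members with a fold of 10 or more were the VPREB1 peak, the IGLL1 peak, 6 peaks in IGH and 1 peak in the flank of IGL. Width and fold went together among the members (Spearman's rho 0.76 over 171 peaks) as among all peaks (0.74 over 52203). Both values come from the same calls.

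Of the 170 peaks of IGH, IGK and IGL, 157 lay in the V parts, 12 in the J-C parts, with which the D segments and constant genes were counted, and 1 in a flank. The V parts also made up most of the sequence, with 2838 kb against 407 kb in the J-C parts. The V parts had 55.3 peaks per Mb and 18.6% of their sequence covered, and the J-C parts 29.5 peaks per Mb and 14.8%. The loci differed in this. In IGH the V part was the more covered, at 37.7%, against 14.7% in the J-C part. In IGK the J-C part had 37.0% covered and the V part 6.09%. The J-C part of IGK is short and held 2 peaks, so its percentage rests on few peaks. The V part of IGK includes an assembly gap of hg19, which lowers its percentage.

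**Figure D2:**
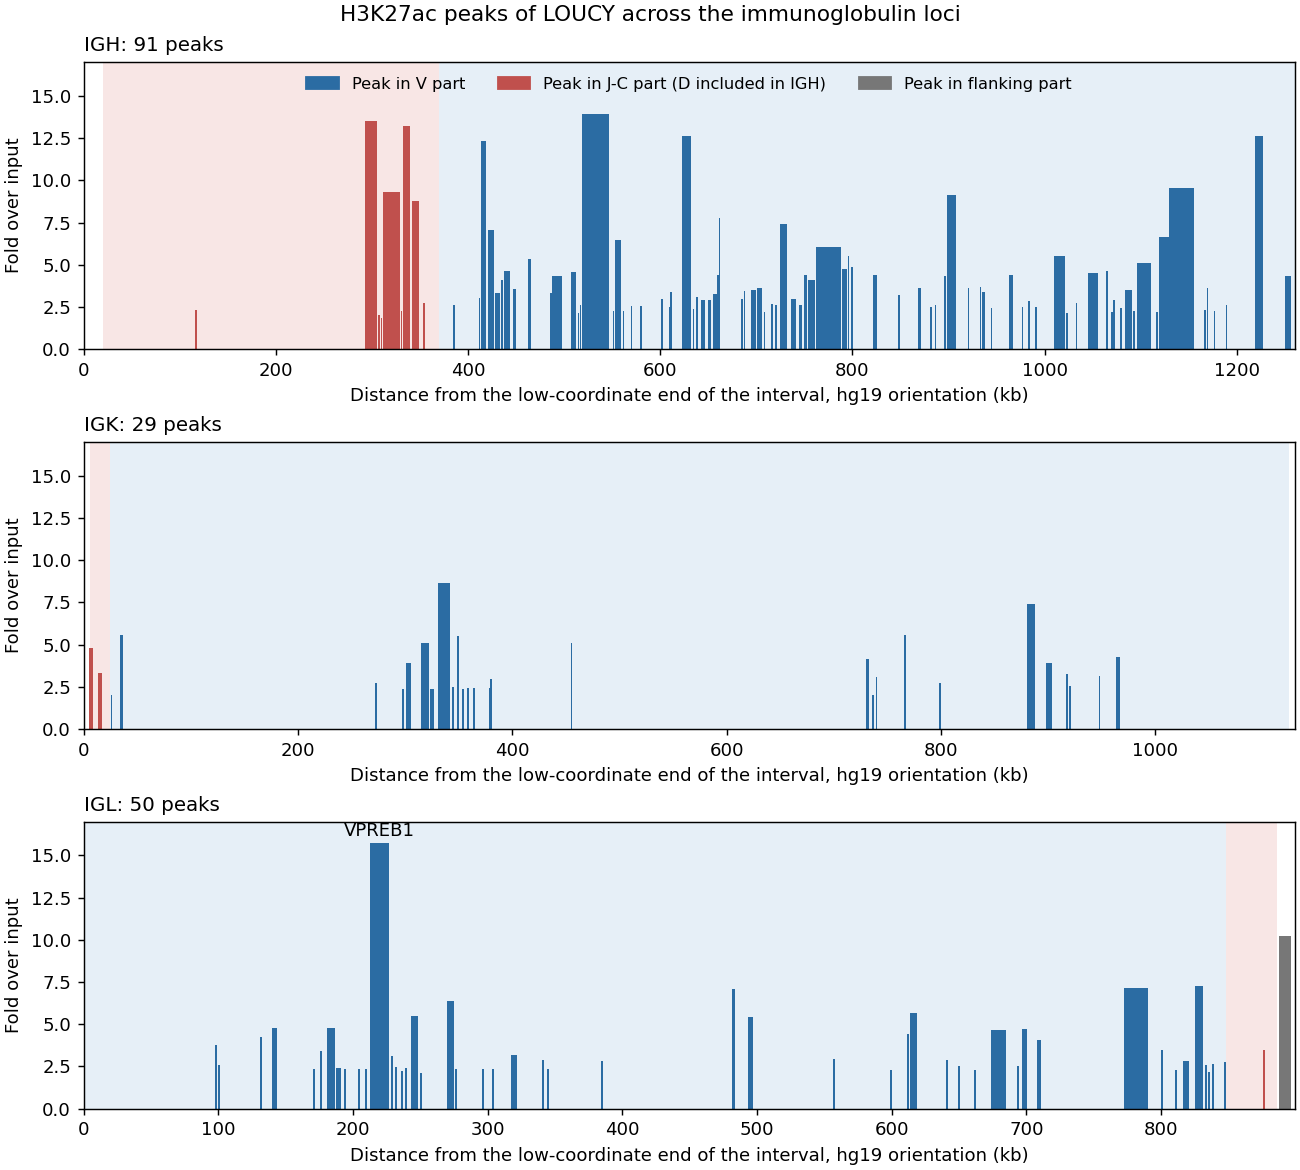
Fold over input of each member peak (vertical axis) along IGH, IGK and IGL, with distance in kb from the low-coordinate end of each interval. Blue shading marks the V part and red shading the J-C part, and very narrow peaks are drawn slightly wider than to scale. IGH holds 91 peaks across its V part and a tight group in the J-C part, IGK holds 29 with wide empty stretches, and in IGL the VPREB1 peak of fold 15.7 stands above the other 49.

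In IGH, the heavy chain locus, H3K27ac was concentrated over the J and D segments within the J-C part and was almost missing over the constant genes downstream of IGHM. The constant genes from IGHA2 up to IGHM held a single peak, of 234 bp and fold 2.31 (106146260 to 106146493), and the stretch without a peak from 106146494 to 106322427 was the longest of the locus, at 176 kb. A strong peak then ran from 106322428 to 106335731 (13304 bp, fold 13.5, -log10 p 108, rank 416 by fold). It began at the edge of IGHM, the gene of the mu constant region, and crossed the J segments. The intron between IGHM and the J segments is where the intronic enhancer of the locus is known to lie. Further peaks lay over the D segments, at 106341095 to 106359305 (18211 bp, fold 9.29), 106362190 to 106369960 (7771 bp, fold 13.2, rank 488) and 106371324 to 106378536 (fold 8.75 over 7213 bp). Between them were 3 weak peaks of 519 bp (fold 2.02), 650 bp (fold 1.87) and 1206 bp (fold 2.28). The last peak of the J-C part, at 106382744 to 106384955, covered the start of FAM30A, a long noncoding RNA gene beside the D segments, with a fold of 2.76. Joined across gaps of up to 12.5 kb, 8 of these 9 peaks formed 1 region of 62.5 kb of which 81.7% was covered. By the sum of fold times width it ranked 141 of the 25510 such regions in the genome.

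The V part of IGH held 82 peaks over 890 kb, or 92.1 per Mb, and peaks were found in every 100 kb stretch of it. The strongest peak of the locus by fold lay there, at 106548705 to 106577181, with a fold of 13.9 (rank 338). It was also the widest of the locus, at 28477 bp (rank 181). The next by fold in the V part were at 106652961 to 106662246 (9286 bp, fold 12.6), 107248389 to 107256930 (8542 bp, fold 12.6) and 106443147 to 106449099 (fold 12.3 over 5953 bp). The peak of highest -log10 p, 117, was further out, at 107159732 to 107185061 (25330 bp, fold 9.54, rank 106 by -log10 p). These strong peaks stood among many weak ones. The median fold in the V part was 3.37, against 3.08 for all peaks. A fold of 4 was reached by 31 of its 82 peaks, 37.8%, near the 37.4% of all peaks. Gaps between neighbouring peaks were short, with a median of 3066 bp in IGH against 11794 bp over the genome. Joined across gaps of up to 12.5 kb, the V part gave regions ranked 125 (107039478 to 107219192, 180 kb, 18 peaks), 145 (106515575 to 106610708, 95.1 kb, 11 peaks) and 302 (106714376 to 106831004, 117 kb, 16 peaks). IGH was the last locus with peaks on chromosome 14, and the nearest peak below it, at 105993045 to 105994984, was 35 kb outside with a fold of 10.7.

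The level of the input, worked out for each peak from its fold and p, changed along the V part of IGH. The 31 peaks in the 300 kb of V nearest the D segments had a median level of 4.77 tags (range 4.12 to 6.37). That is close to 4.11, which is the lowest level of any peak and the background floor of the calls. An input below this floor would not show, so levels near it may overstate the input. Over the 51 peaks further out the median was 8.20 tags (range 4.31 to 26.7). The median of all peaks was 6.34, and it was exceeded by 1 of the 31 inner peaks and by 42 of the 51 outer peaks. Medians below 6.34 were also found in the J-C part of IGH (5.76), in IGK (5.04) and in IGL (5.45). A low level was therefore not particular to the inner V part. The split at 300 kb was chosen after the values were seen. The median fold was 3.48 in the outer peaks and 3.32 in the inner ones, and the median -log10 p was 9.16 in the outer and 5.99 in the inner peaks. The peak at 106792366 to 106817599 (25234 bp) had a fold of 6.03 with an input level of 26.7 tags and an implied ChIP level of 166 tags, rank 100 of all peaks by that level. The strongest inner peak by fold had an input level of 6.37 tags and a ChIP level of 101 tags. Copy number and the mapping of reads in these repeated V segments were not measured, and their part in the difference was not tested.

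**Figure D3:**
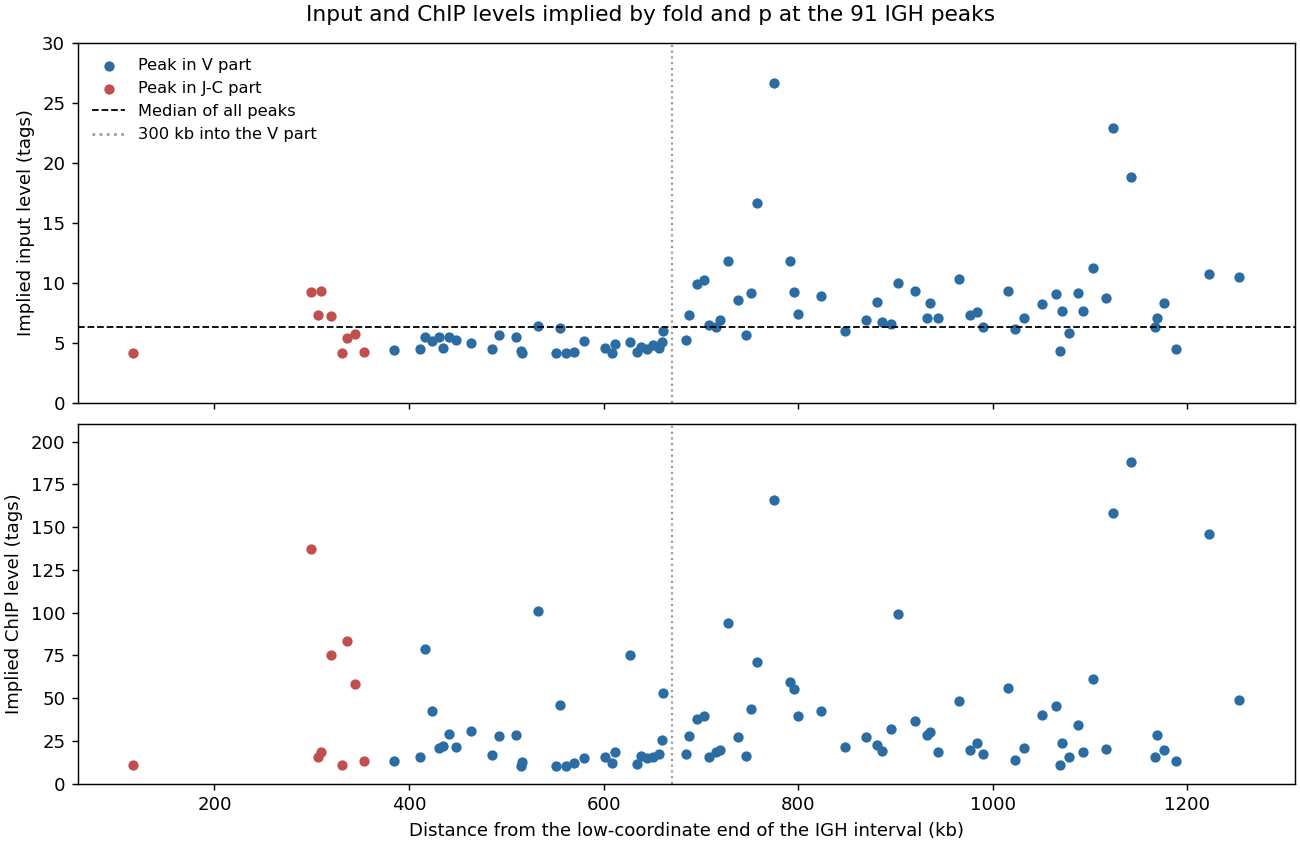
Input level (top) and ChIP level (bottom), in tags, implied by fold and p at each of the 91 IGH peaks against distance in kb from the low-coordinate end of the interval. The dashed line is the median input level of all peaks, 6.34, and the dotted line lies 300 kb into the V part. Points left of that line in the V part have input levels of 4.12 to 6.37, and most points to the right lie above the dashed line.

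IGK, the kappa light chain locus, was the least marked of IGH, IGK and IGL. It had 25.7 peaks per Mb, 6.61% of its sequence covered and no peak of fold 10 or more. The length used includes the assembly gap described below, which lowers the density and the covered percentage. Its constant gene IGKC lay under a moderate peak (89155337 to 89159277, 3941 bp, fold 4.77), and a weaker one followed beyond the J segments (89163546 to 89167300, 3755 bp, fold 3.30). The first V gene, IGKV4-1, had a peak of 2801 bp with a fold of 5.54 (89184487 to 89187287). The widest peak of the locus, also the strongest by fold, lay among the proximal V genes, at 89480917 to 89492173 (11257 bp, fold 8.62, rank 5074), within a group of 10 peaks over 66.3 kb. The next by fold were at 90030046 to 90037488 (7443 bp, fold 7.42), 89915712 to 89916861 (1150 bp, fold 5.55) and 89498447 to 89500278 (fold 5.49 over 1832 bp). Stretches of 274, 235 and 163 kb held no peak. The longest, from 89605905 to 89880072, contains the assembly gap that hg19 has between the proximal and distal V genes, so part of it could not carry a peak. A narrow peak between the J segments and IGKV4-1 (89175299 to 89175780, 482 bp) stood apart. Its fold was 2.02 with a -log10 p of 36.5, which gave an input level of 197 tags, the highest of all members. Outside the interval, the nearest peak on the IGKC side was 11.2 kb away (89137071 to 89138837, fold 3.35). On the other side the nearest was 1567 kb away, and how much of that stretch is assembled in hg19 was not checked.

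IGL, the lambda light chain locus, had 56.2 peaks per Mb and 14.5% of its sequence covered, and its strongest peaks by fold lay at VPREB1 and just beyond the constant genes. The J-C part, where each J segment is paired with a constant gene, held 1 weak peak (23255546 to 23257486, 1941 bp, fold 3.49). No peak lay in IGLL5, a gene that shares sequence with the first J and C segments, and the nearest to its start was 1.94 kb away. Just beyond the last constant gene, a peak of 8266 bp with a fold of 10.2 ran from 23267937 to 23276202 (rank 2459) and crossed the end of the interval with 2064 bp inside. The lambda enhancer is known to lie downstream of the constant genes. The next peak outside was weak, at 23277194 to 23278488 with a fold of 2.70. In the V part near the J segments there were peaks at 23204990 to 23211191 (6202 bp, fold 7.28) and at 23152309 to 23170598 (fold 7.17), the widest peak of the locus at 18290 bp. The end far from the J segments held no peak for 97.5 kb.

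Other genes inside IGL are not immunoglobulin genes. The zinc finger genes ZNF280B and ZNF280A had peaks over their starts with folds of 7.11 (22861769 to 22863662) and 5.42 (22873592 to 22876866). PRAME, a tumour antigen gene found active in many leukaemias, had no peak in its body, and the nearest peak to its start was 24.9 kb away. Apart from the VPREB1 peak, 15 IGL peaks reached a fold of 4, among them those of the ZNF280 genes and the flanking peak.

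The T-cell receptor loci, which T cells rearrange, were set beside these loci. IGH had 30.7% of its sequence covered, close to TRB (30.2%) and TRG (29.4%) and above TRA/TRD (18.8%), while IGL (14.5%) and IGK (6.61%) lay lower. Peak density was 72.2 per Mb in IGH, 56.2 in IGL and 25.7 in IGK, against 39.6 in TRB, 55.3 in TRA/TRD and 92.9 in TRG. Peaks of TRB had a median fold of 4.59 and a median width of 4682 bp, above those of IGH (3.37 and 1944 bp). TRA/TRD (2.71 and 1206 bp) and TRG (2.76 and 1896 bp) lay below IGH in both. The strongest peak had a fold of 15.7 in IGL (the VPREB1 peak), 13.9 in IGH and 8.62 in IGK. In TRB it was 26.4 (rank 2 of all peaks), in TRA/TRD 19 (rank 17) and in TRG 7.14. TRB and TRA/TRD each held a peak of higher fold than any member. Each value rests on 1 library and on how each interval was drawn.

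**Figure D4:**
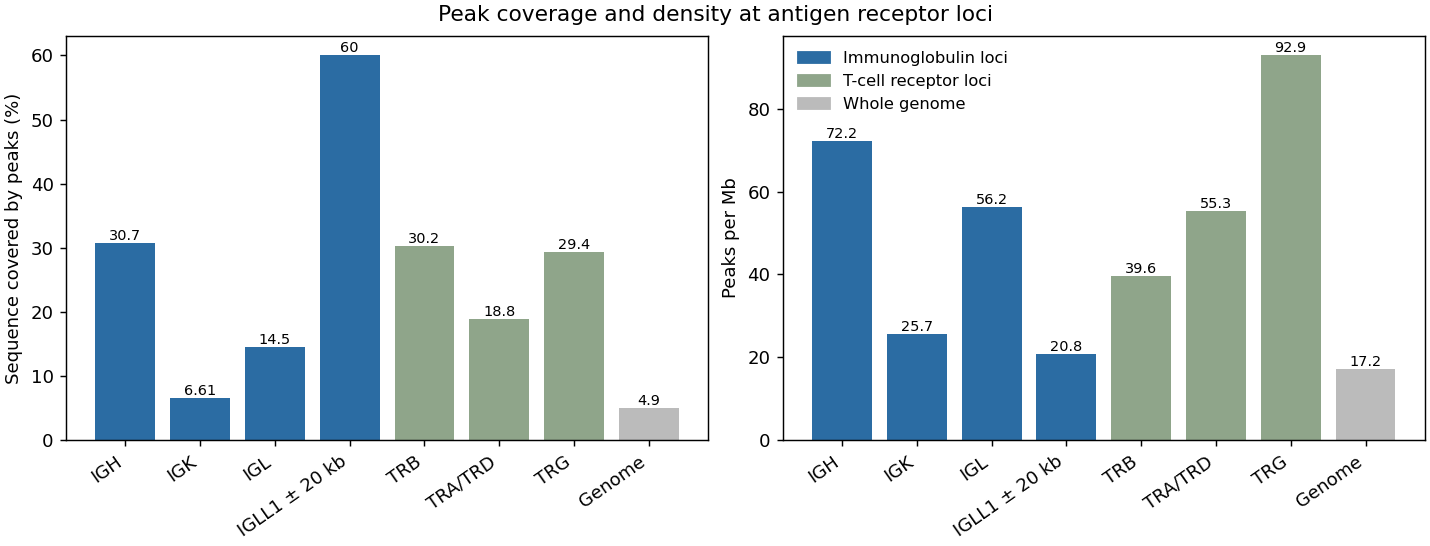
Percent of sequence covered by peaks (left) and peaks per Mb (right) in the immunoglobulin intervals, the T-cell receptor loci and the whole genome. IGH reaches 30.7% and 72.2 peaks per Mb against 4.90% and 17.2 in the genome, and the short IGLL1 interval reaches 60% through 1 peak.

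Genes of the pre-B-cell receptor pathway elsewhere in the genome were listed together with the enzymes and factors of rearrangement. Of 13 genes, 11 had a length that matched RefSeq within 5 kb and were counted, which left out RAG1 and IKZF1. At the unchecked positions of these genes, RAG1 had no peak within 1 kb of its start, with the nearest 3.18 kb away. IKZF1 had one of fold 14.7. A peak lay within 1 kb of the start of 9 of the 11, each with a fold of at least 4. The share over all genes was not worked out here. Of all peaks, 37.4% had a fold of at least 4, but that is a share of peaks and not of genes. The genes were listed with earlier results of these data known. Active promoters in general carry H3K27ac, so the count describes these genes and does not set them apart from others. Among the signalling chains, CD79A had a peak of fold 11 over 21643 bp and CD79B one of fold 13.1 over 5164 bp. VPREB3, a gene related to VPREB1, had a fold of 6.44 (24092646 to 24096592). The kinases SYK and BTK had folds of 8.82 and 7.37, and the adaptor BLNK had no peak within 15.7 kb of its start. Among the transcription factors that drive early B-cell development, TCF3, which is also active in T-cell precursors, had a fold of 16.7 (rank 70), PAX5 11.6 and EBF1 9.43. The PAX5 peak (37035011 to 37042222 of chromosome 9) lay 0.535 kb outside the start used. The recombinase gene RAG2 had a fold of 4.08. DNTT, which adds bases at V(D)J joints, had no peak within 15.5 kb of its start. These peaks may also serve neighbouring genes, and RNA was not analysed here.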

How the data were processed

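Per the file headers, the authors called broad peaks with MACS2 version 2.1.0.20140616, ChIP against input, with a q cutoff of 0.05 and 1 tag kept per position. Bowtie2 and hg19 are named per the submitters' processing notes, with no settings in the sources used here. The deposited fold is a ratio of ChIP to local input level, and the authors also deposited a -log10 p-value with a -log10 q-value for every peak, all used here to describe and rank peaks. Their pileup column was left out, since it was below 0 throughout. Keeping 1 tag per position caps the strongest peaks. How reads that map to several places were treated, which matters in repeated V segments, is not known here.

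Boundaries of V and J-C parts, gene starts and T-cell receptor loci were hg19 positions known as background. A gene was counted only if its length was within 5 kb of that in RefSeq for GRCh38.p14. A peak belongs to the part that holds most of it. The implied input level is the level at which a peak's fold has its Poisson -log10 p. It is approximate for broad peaks. Its calculation was tested on simulated data made with the same formula. That checks the solving step only and cannot show whether the levels are right for these peaks. The implied ChIP level follows from fold and input level. Beside the 13 genes counted, 1 more gene chosen for the pathway list is not reported here. The members, lists and the genes named were chosen with earlier results of these data known. Peaks named were, per locus, the 5 of highest fold, the widest, up to 10 of the J-C and flanking parts, those over listed genes, the longest gap and the nearest outside. Others named by -log10 p, ChIP level or joined region were chosen after their values were seen. Peaks were joined across gaps of up to 12.5 kb. Python 3.11.15 with pandas 2.3.3, scipy 1.17.1 and matplotlib 3.10.9 was used.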

Additional observations from a re-analysis of the deposited data

How the results depend on the processing

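Of 33 alternative values, 17 stayed within the range set for them and 16 moved. Some of the 17 could not have moved, as described below. The number of member peaks was 84 with a minimum -log10 q of 5 and 58 with a minimum of 10, against 171, because weak peaks were left out. It stayed between 153 and 171 with peak midpoints, no flank at IGLL1 or peaks merged within 1 kb. At those thresholds on q the covered percentage was 15.7 and 13.2 over all intervals, 26.6 and 22.5 in IGH, 5.38 and 3.63 in IGK, and 11 and 9.55 in IGL, and it was 60 at IGLL1. The share of members past the fold was 53.8% at a fold of 3 (all peaks 51.8%) and 14.6% at a fold of 6 (all peaks 23.2%), since the threshold itself differs. The share of peaks in the V part stayed between 89.5% and 92.9%, against 92.4%. Ranked by -log10 p or by implied ChIP level, the first peak of IGH was the one of fold 9.54 at 107159732. By ChIP level, an alternative chosen after seeing the data, the first of IGK was the narrow peak of fold 2.02 with an input level of 197. The first peak of IGL was unchanged under both. IGLL1 held 1 peak, so its first peak could not change. The folds at VPREB1 and IGLL1 were the same with 1 kb added. They could not change either, since the next peaks lay at least 7.99 kb from VPREB1 and 27.7 kb from IGLL1. The median implied input level of the members was 6.73 for folds of at least 3, against 5.79, and the cause was not tested. No paired analysis was possible because each group held a single library.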
